A study of Mus musculus with 12 samples.

Results

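The 32 genes described here encode enzymes of sterol and fatty acid synthesis, the SREBP machinery that controls them, and 3 carriers that move cholesterol inside or out of the cell. They were taken from a list of gene symbols that uses no measured value, though it was drawn up with earlier results of these data known, and were matched to the array rows through their gene identifiers. All 32 were measured, among 23740 genes with a name. By role the list holds 7 enzymes of the mevalonate and isoprenoid steps, 11 enzymes from squalene to sterol, 5 SREBP regulators, 6 fatty acid genes and 3 transport and efflux genes.

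The samples were splenic CD4+ T cells of the mouse, hybridised to 12 arrays, with 3 arrays in each of 4 groups made by genotype and state. Cre- cells were Lck-Cre-;Ikzf+/+ and carried intact Ikaros, a zinc finger transcription factor of lymphocytes. Cre+ cells were Lck-Cre+;Ikzf-/-, with Cre under the promoter of Lck, a kinase gene of the T lineage. Cells were at baseline, or had been activated for 24 h with anti-CD3 on the plate, which engages the T cell receptor complex, and anti-CD28 in solution, which adds costimulation. The comparisons ask what activation did to these genes in each genotype, how the genotypes differed in each state, and whether they responded differently. Cre was present only where Ikaros was labelled as deleted, so the effects of Cre and of the deletion cannot be told apart. Likewise no group was cultured for 24 h without the antibodies, so culture and activation cannot be told apart. No label gives the ages of the mice or says whether the arrays of a group came from separate mice, so p-values measure the spread between these samples. Values are log2 expression, in which a difference of 1 is a doubling, and a level is not comparable between genes. A gene passed at a limma adjusted p (Benjamini-Hochberg over the 23740 genes) under 0.05.

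The genotype could not be checked on Ikzf1, because the deleted part is not given and the whole gene has 1 value, at baseline 10.53 ± 0.01 for Cre- and 10.36 ± 0.27 for Cre+ cells (SD, n = 3). T cell markers were high on every array, with a mean of 10.4 to 10.6 over 7 genes at baseline and 9.84 to 10.2 after activation. Markers of B cells were present too. The mean of 14 B cell genes was 8.36 to 8.79 at baseline, and it was 5.49 to 6.82 in activated Cre- and 6.15 to 7.52 in activated Cre+ cells. The mean of 13 measured myeloid genes was 5.30 to 6.09 at baseline and 3.70 to 4.13 after activation. Fewer cells of a type and less RNA per cell cannot be told apart in such bulk samples. The activated arrays numbered 3 stood apart in both genotypes. A mean over 20 cell cycle genes came to 8.98 there in Cre- cells, against 6.61 and 6.62 on arrays 1 and 2, and to 8.61 in Cre+ cells, against 7.19 and 6.56. Arrays of a group correlated at 0.992 to 0.993 at baseline and at 0.972 to 0.994 in activated Cre- and 0.976 to 0.990 in activated Cre+ cells. Calls of named genes that were lost without such an array are given with and without it.

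As background, sterol synthesis starts from acetyl-CoA and runs through mevalonate and the isoprenoid farnesyl diphosphate to squalene, lanosterol and cholesterol. SREBP transcription factors, encoded by Srebf1 and Srebf2, are held in the endoplasmic reticulum membrane by Scap and the Insig proteins when sterols are plentiful. When sterols run low they are cut, enter the nucleus and drive genes of sterol and fatty acid synthesis. Liver X receptors act as the counterpart. They sense oxysterols, which build up when cholesterol is plentiful, and induce the cholesterol exporters Abca1 and Abcg1. Dividing T cells need new membrane and are known to use the SREBP pathway.

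After activation 11 of the 18 sterol synthesis enzymes rose in Cre- and 8 of 18 in Cre+ cells, and none fell. In both genotypes the cholesterol exporters Abca1 and Abcg1 and the desaturase gene Scd1 fell, and the fatty acid enzymes Acaca and Fasn rose. In Cre- cells 15 of the 32 genes rose and 3 fell. Over all genes tested, 18.6% passed in Cre- cells, 9.44% higher and 9.14% lower. In Cre+ cells 12 of the 32 rose and 3 fell, where 20.8% of all genes passed, 10.2% higher and 10.6% lower. Many of all genes read dim, so these shares are low beside those of brighter genes. Of the 9727 genes with a mean of at least 5, 2390 rose and 1877 fell in Cre- cells. In Cre+ cells 2374 of them rose and 2129 fell. Among the 30 listed genes with such a mean, 15 rose and 3 fell in each genotype. The median log2 difference over the 32 genes was 0.45 in Cre- and 0.41 in Cre+ cells, beside medians over all genes of -0.00 and -0.02. The activated arrays lay wholly above the baseline arrays for 20 of the 32 genes in Cre- and 21 in Cre+ cells, and wholly below for 3 and 4. Groups did not overlap for 35.3% and 36.7% of all genes. Without the activated arrays numbered 3, 12 genes rose and 3 fell in Cre- cells, and 13 rose and 4 fell in Cre+ cells. With arrays weighted by their estimated quality, 19 rose and 4 fell in Cre+ cells. These weights lean on 1 array of each activated group. They were 3.91, 0.39 and 0.51 on Cre+ activated arrays 1 to 3. On Cre- activated arrays 1 to 3 they were 0.85, 3.15 and 0.23. Passing with array weights is therefore close to a result of single activated arrays.

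**Figure D1:**
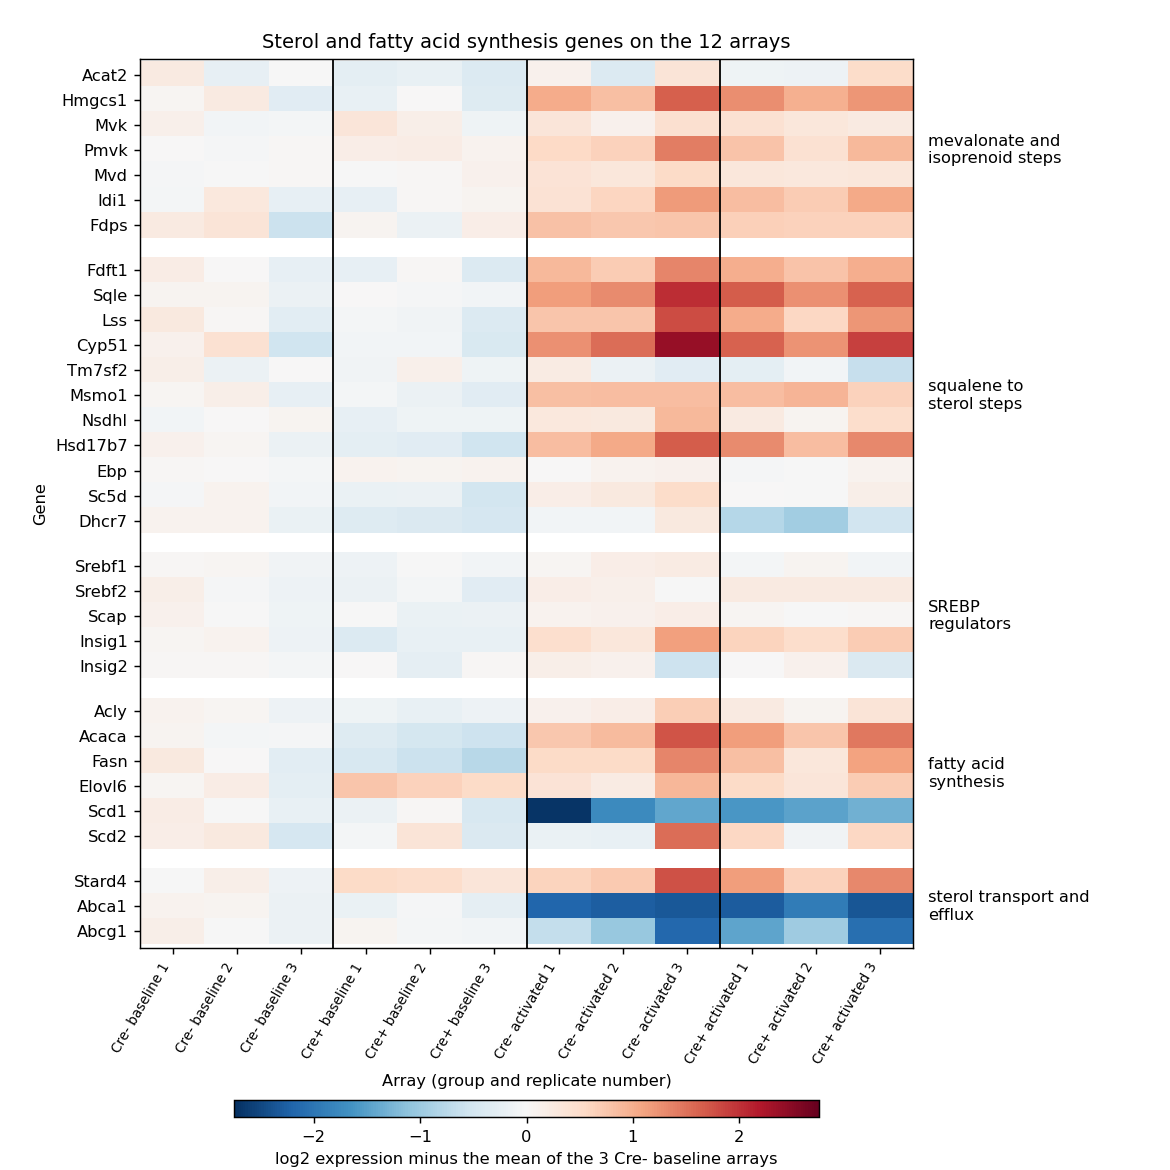
Heat map of the 32 genes (rows, by role) on the 12 arrays (columns, by group and replicate number). Colour is log2 expression minus the mean of the 3 Cre- baseline arrays, from blue (lower) to red (higher). Most sterol enzymes are red on all 6 activated arrays, deepest on Cre- activated array 3, while Scd1, Abca1 and Abcg1 are blue on all 6.

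In the mevalonate and isoprenoid steps, 5 of 7 enzymes rose in Cre- cells (median 0.72) and 2 of 7 in Cre+ cells (median 0.54), with none lower. Hmgcs1, the synthase that makes HMG-CoA, read 7.72, 7.89 and 7.35 on Cre- baseline arrays 1 to 3 and 8.67, 8.48 and 9.30 on the activated arrays. It read 7.44, 7.67 and 7.31 on Cre+ baseline arrays and 8.94, 8.64 and 8.87 on the activated ones. Every activated array lay above every baseline array. The rise was 2.24-fold in Cre- (log2 1.16, SE 0.21, limma adjusted p = 0.00257) and 2.54-fold in Cre+ cells (log2 1.34, SE 0.21, limma adjusted p = 0.000956).

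Mvd, the decarboxylase that makes isopentenyl diphosphate, moved less but with little spread. It read 6.06, 6.07 and 6.12 on Cre- baseline arrays against 6.47, 6.39 and 6.61 after activation. The Cre+ values were 6.07, 6.11 and 6.21 against 6.39, 6.37 and 6.39. The groups did not overlap in either genotype. The log2 difference was 0.41 (SE 0.09, limma adjusted p = 0.00874) in Cre- cells, where it passed, and 0.25 (SE 0.09, limma adjusted p = 0.0716) in Cre+ cells, where it did not.

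Idi1, the isopentenyl diphosphate isomerase, rose by 0.72 in Cre- (SE 0.20, limma adjusted p = 0.0241) and by 0.90 in Cre+ cells (limma adjusted p = 0.00722). The Cre- call was lost without Cre- baseline array 1 (0.69, adjusted p = 0.0791), Cre- baseline array 3 (0.61, 0.0988) or Cre- activated array 3 (0.50, 0.076). Pmvk, the phosphomevalonate kinase, and Fdps, the farnesyl diphosphate synthase, rose in Cre- cells by 0.85 and 0.77 (limma adjusted p = 0.0109 and 0.0211). The Pmvk value was 0.58 without Cre- activated array 3, and its call was kept. Without Cre- baseline array 3, which read 3.48 against 4.33 and 4.43 on arrays 1 and 2, the Fdps value was 0.47 (adjusted p = 0.026). In Cre+ cells Pmvk stood 0.54 and Fdps 0.61 above baseline, and neither passed (limma adjusted p = 0.0756 and 0.0551). At baseline Idi1 read 4.18 to 4.69, above the array medians of 4.04 to 4.17, and Fdps 3.48 to 4.43, on both sides of them. Background was not measured for such dim readings. Mvk, the mevalonate kinase, differed by 0.30 and 0.21, and Acat2, the thiolase at the start of the pathway, by 0.03 and 0.36. None of these passed (limma adjusted p = 0.165 and 0.345 for Mvk, 0.947 and 0.278 for Acat2).

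From squalene to sterol, 6 of 11 enzymes rose in each genotype, the same 6 genes, and none fell. Over the 11 the median log2 difference was 0.84 in Cre- and 0.98 in Cre+ cells. These 6 were Fdft1, Sqle, Lss, Cyp51, Msmo1 and Hsd17b7. Sqle, the squalene epoxidase and a rate-limiting enzyme of this branch, read 6.10, 6.10 and 5.86 on Cre- baseline arrays and 7.16, 7.33 and 8.04 after activation. The Cre+ arrays read 6.04, 5.99 and 5.94 at baseline and 7.69, 7.27 and 7.65 after activation. All 6 activated arrays lay more than 1 log2 unit above all 6 baseline arrays, with Cre- activated array 3 the highest. The rise was 2.81-fold in Cre- (log2 1.49, SE 0.20, limma adjusted p = 0.000439) and 2.92-fold in Cre+ cells (log2 1.55, SE 0.20, limma adjusted p = 0.000308).

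Msmo1, the methylsterol monooxygenase, showed no such lift on array 3. It read 7.42, 7.54 and 7.15 on Cre- baseline arrays and 8.19, 8.23 and 8.22 after activation. For Cre+ cells the values were 7.32, 7.22 and 7.05 at baseline and 8.22, 8.30 and 8.02 after activation. The activated arrays of each genotype lay within 0.3 log2 units of each other and above all baseline arrays. It rose 1.79-fold in Cre- (log2 0.84, SE 0.12, limma adjusted p = 0.000787) and 1.97-fold in Cre+ cells (log2 0.98, SE 0.12, limma adjusted p = 0.000252).

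Cyp51, the lanosterol demethylase, had the largest rise among the 32 genes, from 6.18 ± 0.50 to 7.92 ± 0.59 in Cre- cells (3.33-fold, limma adjusted p = 0.00222) and from 6.00 ± 0.20 to 7.77 ± 0.32 in Cre+ cells (3.41-fold, limma adjusted p = 0.00178; SD, n = 3). Hsd17b7, a ketosterol reductase of the same pathway, read 6.02, 5.96 and 5.74 at baseline and 6.76, 6.96 and 7.57 after activation in Cre- cells. It read 5.64, 5.60 and 5.35 at baseline and 7.22, 6.76 and 7.23 after activation in Cre+ cells. The Cre+ baseline arrays were the lowest of the 12. The rise was 2.28-fold in Cre- (log2 1.19, SE 0.20, limma adjusted p = 0.0018) and 2.9-fold in Cre+ cells (log2 1.54, SE 0.20, limma adjusted p = 0.000314). Fdft1, the squalene synthase, rose by 0.98 and 1.12 (limma adjusted p = 0.0025 and 0.000979). Lss, the lanosterol synthase, rose by 1.11 in each genotype (limma adjusted p = 0.0143 and 0.0126). Its calls rested on single arrays: in Cre- cells it was 0.96 without Cre- baseline array 3 (adjusted p = 0.0645), and in Cre+ cells 1.01 without Cre+ baseline array 3 (0.0525) and 0.97 without Cre+ activated array 3 (0.0548). The Cre- value was lowest, at 0.76, without Cre- activated array 3, where the call was kept.

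The other 5 enzymes of this stretch did not pass in either genotype. Nsdhl, a sterol dehydrogenase, stood 0.48 and 0.42 above baseline (limma adjusted p = 0.062 and 0.0951), and Sc5d, a sterol desaturase, 0.32 and 0.34 (0.0975 and 0.0787). Tm7sf2, a sterol reductase, read 5.56, 5.24 and 5.40 on Cre- baseline and 5.63, 5.24 and 5.08 on Cre- activated arrays, and 5.31, 5.53 and 5.29 against 5.14, 5.32 and 4.76 in Cre+ cells. The states overlapped in both genotypes, with log2 differences of -0.08 and -0.30 (limma adjusted p = 0.819 and 0.267). Ebp, the sterol isomerase, was nearly flat: its 12 arrays lay between 6.96 and 7.13, and its differences were 0.08 and -0.07 (limma adjusted p = 0.591 and 0.633). Dhcr7, the reductase of the final step, differed by 0.05 in Cre- and by -0.35 in Cre+ cells (limma adjusted p = 0.886 and 0.107). The Cre+ difference passed with array weights (-0.37, adjusted p = 0.0107) and without the activated arrays numbered 3 (-0.47, 0.0177).

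**Figure D2:**
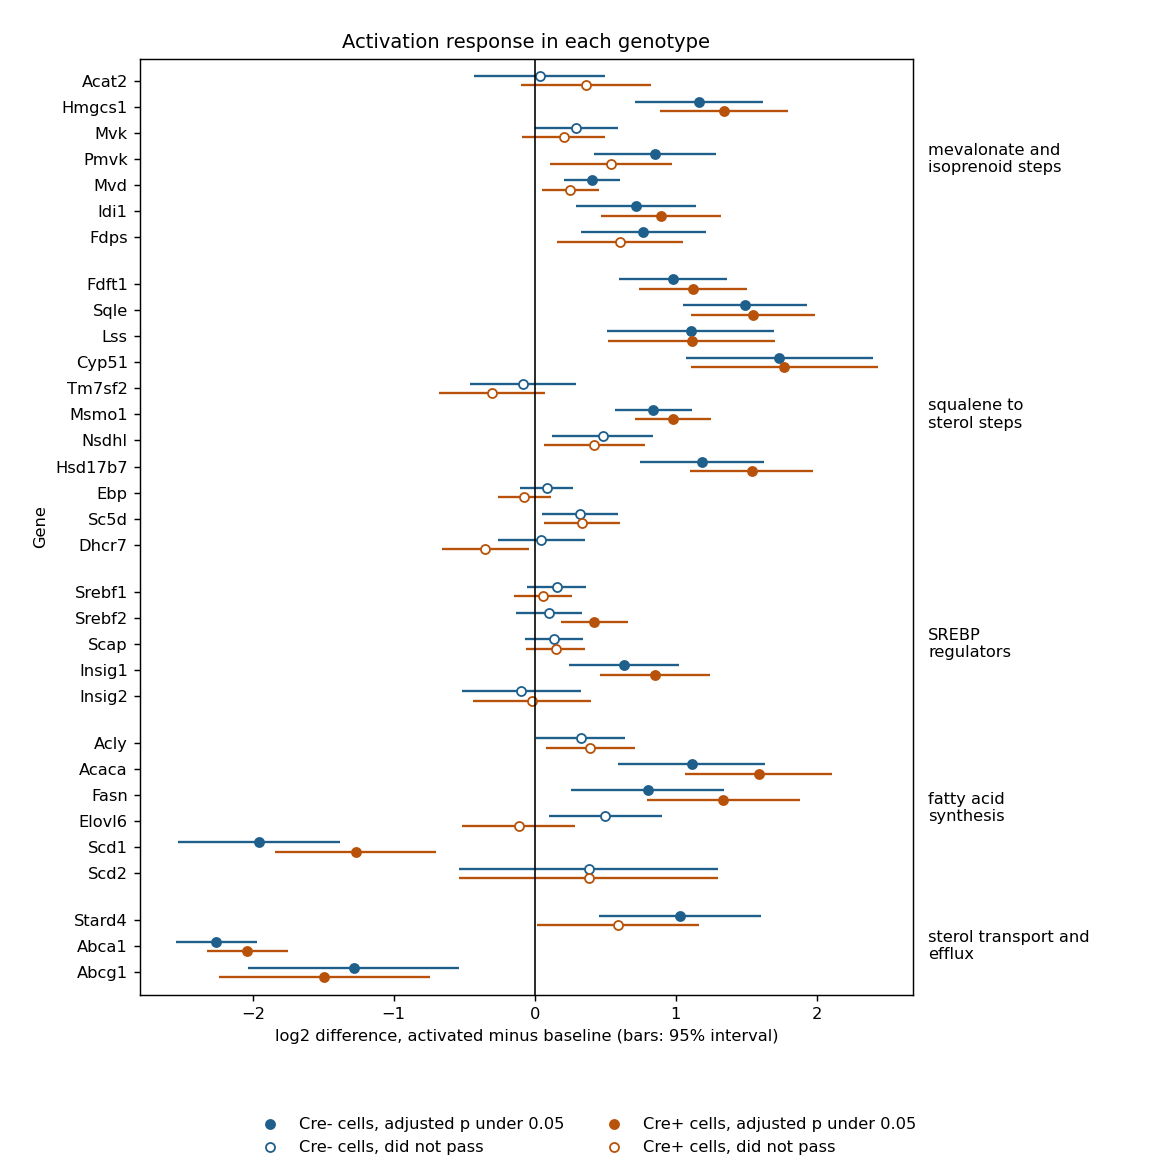
Activation response of the 32 genes (rows, by role) as the log2 difference of activated minus baseline arrays, in Cre- cells (blue) and Cre+ cells (orange). Points are differences of means of 3 arrays, bars their 95% intervals from the limma model, and filled points have an adjusted p under 0.05. The response runs from -2.26 (Abca1 in Cre- cells) to 1.77 (Cyp51 in Cre+ cells), and the points of the genotypes lie close together for most genes.

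Promoter windows were read to show what sequence these genes share, for genes that rose or, like Dhcr7, did not. The windows run from 250 bases before to 50 after the annotated start (RefSeq, GRCm38.p6), and the table used holds 33 windows of 25 of the 32 genes. A set of 4 letter patterns were searched on both strands: TCACNCCAC, a form of the sterol regulatory element, CCAAT, the box bound by the factor NF-Y that is known to act with SREBP, CACGTG, an E-box, and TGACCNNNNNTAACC, a form of the liver X receptor element. CCAAT was in 21 of the 33 windows (63.6%), against 37.4% of 32851 windows of all genes, and in a window of 20 of the 25 genes. CACGTG was in 7 windows (21.2%, against 7.15%) of 6 genes, Hsd17b7, Insig1, Sc5d, Dhcr7, Scap and Abca1. Scap counts with both of its windows, which overlap. TCACNCCAC was in 1 window (3.03%, against 1.24%), that of Hmgcs1. Below, capitals mark matches to these 3 patterns on either strand (CCAAT reads ATTGG on the other strand). The Hmgcs1 window is chr13:119690101-119690400 (+ strand), that of Hsd17b7 is chr1:169969156-169969455 (- strand), and that of Dhcr7, the one of its 3 windows with CCAAT, is chr7:143829964-143830263 (+ strand), each printed 5′ to 3′ along the gene.
Hmgcs1: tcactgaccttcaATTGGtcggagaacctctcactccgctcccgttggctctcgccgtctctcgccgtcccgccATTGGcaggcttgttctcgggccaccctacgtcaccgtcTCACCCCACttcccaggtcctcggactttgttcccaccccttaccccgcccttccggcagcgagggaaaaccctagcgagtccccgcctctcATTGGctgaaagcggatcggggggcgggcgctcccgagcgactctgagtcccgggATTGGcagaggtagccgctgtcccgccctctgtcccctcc
Hsd17b7: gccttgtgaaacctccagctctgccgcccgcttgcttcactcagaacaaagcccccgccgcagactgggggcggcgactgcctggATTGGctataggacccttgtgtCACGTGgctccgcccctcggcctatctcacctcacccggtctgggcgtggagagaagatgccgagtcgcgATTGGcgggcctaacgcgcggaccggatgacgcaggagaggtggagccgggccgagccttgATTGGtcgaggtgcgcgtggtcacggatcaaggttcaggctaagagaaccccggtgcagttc
Dhcr7: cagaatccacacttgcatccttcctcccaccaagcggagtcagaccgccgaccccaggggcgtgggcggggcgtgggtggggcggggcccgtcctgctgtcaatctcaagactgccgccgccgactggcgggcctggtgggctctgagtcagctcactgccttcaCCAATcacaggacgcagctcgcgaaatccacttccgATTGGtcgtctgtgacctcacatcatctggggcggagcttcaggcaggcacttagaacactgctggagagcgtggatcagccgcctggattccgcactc
Hmgcs1 holds 4 CCAAT matches beside the TCACNCCAC match, Hsd17b7 holds 3 beside a CACGTG match, and this Dhcr7 window holds 2. Genes that did not pass after activation held CCAAT as well: the Mvk window has 5 matches and the Ebp window 2. A match is a run of letters and does not show that a factor was bound.

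Of the 5 SREBP regulators, Insig1 rose in both genotypes and Srebf2 in Cre+ cells, and the medians were 0.14 and 0.15. Insig1, which holds SREBP in the endoplasmic reticulum and is itself an SREBP target, read 7.70, 7.76 and 7.51 on Cre- baseline arrays and 8.13, 7.97 and 8.78 after activation. Cre+ cells gave 7.29, 7.46 and 7.46 at baseline and 8.27, 8.15 and 8.35 after activation. Baseline and activated arrays did not overlap in either genotype. The rise was 1.81-fold in Cre+ cells (log2 0.85, SE 0.18, limma adjusted p = 0.00571) and 1.55-fold in Cre- cells (log2 0.63, SE 0.18, limma adjusted p = 0.0287). The Cre- value rests on the arrays used. It was 0.39 without Cre- activated array 3 (adjusted p = 0.0599) and 0.37 with array weights (0.0352), and the call was also lost without Cre- baseline array 1 (0.66, 0.0686), array 2 (0.68, 0.052) or array 3 (0.56, 0.106).

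Srebf2, which encodes the SREBP that mainly drives sterol genes, read 9.17, 9.29 and 9.03 on Cre+ baseline arrays and 9.59 on each of the 3 Cre+ activated arrays. In Cre- cells it read 9.49, 9.31 and 9.20 at baseline and 9.51, 9.46 and 9.33 after activation, and the states overlapped. The Cre+ rise was 1.34-fold (log2 0.42, SE 0.11, limma adjusted p = 0.0154), and it was 0.36 without Cre+ baseline array 3 (adjusted p = 0.0674). The Cre- difference was 0.10 (limma adjusted p = 0.61). That the responses differ was not shown, since the difference of responses was 0.32 with a 95% interval of -0.01 to 0.65.

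Srebf1, which encodes the SREBP known for fatty acid genes, stayed within a narrow range. It read 6.95, 6.97 and 6.81 on Cre- baseline and 6.97, 7.09 and 7.14 on Cre- activated arrays, and 6.78, 6.90 and 6.83 against 6.86, 6.98 and 6.84 in Cre+ cells. The differences were 0.15 and 0.06 (limma adjusted p = 0.324 and 0.753). The escort gene Scap differed by 0.14 and 0.15 (0.397 and 0.333). Insig2, the second Insig gene, went against the others in sign without passing, at -0.09 and -0.02 (0.817 and 0.966). Its activated arrays 3 read lowest, 5.36 in Cre- and 5.52 in Cre+ cells, against 6.08 and 6.04, and 5.94 and 6.05, on activated arrays 1 and 2.

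The fatty acid genes split: Acaca and Fasn rose and Scd1 fell in both genotypes, and Acly, Elovl6 and Scd2 passed in neither. Acaca, the acetyl-CoA carboxylase that makes malonyl-CoA, read 7.08, 6.94 and 6.98 on Cre- baseline arrays and 7.73, 7.87 and 8.74 after activation. In Cre+ cells it read 6.64, 6.51 and 6.42 at baseline and 8.14, 7.76 and 8.44 after activation. The 4 groups fall in order, with Cre+ baseline lowest, Cre- baseline next and the activated groups above and overlapping each other. The rise was 2.16-fold in Cre- (log2 1.11, SE 0.24, limma adjusted p = 0.00716) and 3.01-fold in Cre+ cells (log2 1.59, SE 0.24, limma adjusted p = 0.000784). The Cre- value was 0.80 without Cre- activated array 3, and the call was kept.

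Fasn, the fatty acid synthase, read 8.71, 8.44 and 8.15 at baseline and 8.96, 8.97 and 9.77 after activation in Cre- cells. It read 7.998, 7.85 and 7.68 at baseline and 9.26, 8.74 and 9.53 after activation in Cre+ cells. Activated arrays lay above baseline arrays in each genotype, with the wider gap in Cre+ cells. The rise was 2.53-fold in Cre+ (log2 1.34, SE 0.25, limma adjusted p = 0.00296) and 1.74-fold in Cre- cells (log2 0.80, SE 0.25, limma adjusted p = 0.0436). The Cre- call held in 10 of 20 alternatives. It was 0.53 without Cre- activated array 3 (adjusted p = 0.149), also 0.53 with array weights (0.0302), and 0.66 to 0.94 without a Cre- baseline array (0.159 without array 3, 0.0995 without array 2, 0.0515 without array 1). Leaving out Cre+ baseline array 1, 2 or 3 or Cre+ activated array 1, which enter through the shared spread, also lost it (0.0584, 0.0626, 0.0569 and 0.0608).

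Scd1, the stearoyl-CoA desaturase that makes oleic acid, went the other way. It read 7.46, 7.25 and 7.06 on Cre- baseline arrays and 4.57, 5.51 and 5.83 after activation. In Cre+ cells it read 7.09, 7.28 and 6.83 at baseline and 5.66, 5.79 and 5.94 after activation. Every activated array was more than 0.8 log2 units below every baseline array of either genotype. It fell by 1.96 on the log2 scale in Cre- (3.88-fold, SE 0.26, limma adjusted p = 0.000422) and by 1.27 in Cre+ cells (2.41-fold, SE 0.26, limma adjusted p = 0.0053). Its relative Scd2 had the widest spread of the 32 genes in activated Cre- cells, at 8.50, 8.48 and 10.24 against 8.87, 8.97 and 8.23 at baseline. The difference was 0.38 in each genotype (limma adjusted p = 0.627 and 0.608).

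Acly, the citrate lyase that supplies cytosolic acetyl-CoA, stood 0.33 and 0.39 above baseline (limma adjusted p = 0.154 and 0.0778). Elovl6, an elongase of long-chain fatty acids, read 6.30, 6.47 and 6.00 at baseline and 6.62, 6.47 and 7.17 after activation in Cre- cells. It read 7.01, 6.89 and 6.79 against 6.79, 6.59 and 6.96 in Cre+ cells. The differences were 0.50 and -0.11 (limma adjusted p = 0.0835 and 0.744), and Cre- baseline was the low group.

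In transport and efflux, Abca1 and Abcg1 fell in both genotypes and Stard4 rose in Cre- cells. Abca1, which exports cholesterol to apolipoproteins, read 6.59, 6.56 and 6.32 on Cre- baseline arrays and 4.30, 4.22 and 4.16 after activation. Among Cre+ arrays it read 6.31, 6.47 and 6.24 at baseline and 4.19, 4.58 and 4.14 after activation. No array of one state came near the other, and after activation it read at about the array medians. It fell by 2.26 in Cre- (4.79-fold, SE 0.13, limma adjusted p = 1.09e-06) and by 2.04 in Cre+ cells (4.11-fold, SE 0.13, limma adjusted p = 2.01e-06). These were the smallest p-values among the 32 genes.

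Abcg1, which exports cholesterol to lipoprotein particles, read 8.28, 8.12 and 7.96 at baseline and 7.48, 7.08 and 5.95 after activation in Cre- cells. It read 8.20, 8.07 and 8.05 at baseline and 6.67, 7.14 and 6.04 after activation in Cre+ cells. The activated arrays numbered 3 were the lowest in both genotypes. It fell by 1.49 in Cre+ (2.82-fold, SE 0.34, limma adjusted p = 0.00942) and by 1.28 in Cre- cells (2.44-fold, SE 0.34, limma adjusted p = 0.022). The Cre- difference was -0.84 without Cre- activated array 3 (adjusted p = 0.0482). The Cre- call was lost without Cre- baseline array 1 (-1.20, 0.0786) or array 2 (-1.29, 0.06). B cell markers fell in the same comparison, 13 of 14 in Cre- (median -2.33) and 10 of 14 in Cre+ cells (median -1.47), as did 11 and 10 of 13 myeloid markers (medians -1.73 and -1.44). Within each activated group array 3 was highest for the B cell mean. On that array Abcg1 and Abca1 were lowest, while Scd1 was highest. The part of these cells in the lower Abca1, Abcg1 and Scd1 readings was not tested.

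Stard4, a carrier of cholesterol between membranes, read 6.01, 6.17 and 5.87 on Cre- baseline arrays and 6.63, 6.74 and 7.76 after activation. In Cre+ cells it read 6.53, 6.50 and 6.35 at baseline and 7.16, 6.66 and 7.33 after activation. Activated arrays lay above baseline arrays in each genotype. The rise of 2.04-fold in Cre- cells passed (log2 1.03, SE 0.26, limma adjusted p = 0.0176), and the difference of 0.59 in Cre+ cells did not (limma adjusted p = 0.15). The Cre- value was 0.67 without Cre- activated array 3 (adjusted p = 0.0279), and the call was lost without Cre- baseline array 1 (1.03, 0.0555) or 3 (0.96, 0.0682).

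The pattern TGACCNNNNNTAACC, a form of the element that liver X receptors bind, was in 3 of the 33 windows (9.09%) and in 16 of the 32851 windows of all genes (0.0487%). The 3 windows belong to Abca1 and Fasn and to 1 of 3 starts of Srebf1, all of which are known liver X receptor targets. Whether this spelling of the element was drawn from sites of such known targets is not recorded. The shares are therefore a description and no test of enrichment. The 3 windows are shown because Abca1 fell while Fasn rose after activation. The windows are chr4:53159846-53160145 for Abca1, chr11:60210422-60210721 for Srebf1 and chr11:120824498-120824797 for Fasn, all on the - strand of GRCm38.p6 and printed 5′ to 3′ along the gene, with capitals for this pattern only.
Abca1: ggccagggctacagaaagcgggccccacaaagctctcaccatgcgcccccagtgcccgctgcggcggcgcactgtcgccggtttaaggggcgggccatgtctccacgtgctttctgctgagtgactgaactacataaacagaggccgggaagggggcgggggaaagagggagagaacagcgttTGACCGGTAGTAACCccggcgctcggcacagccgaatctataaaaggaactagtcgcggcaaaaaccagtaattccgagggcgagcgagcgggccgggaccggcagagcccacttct
Srebf1: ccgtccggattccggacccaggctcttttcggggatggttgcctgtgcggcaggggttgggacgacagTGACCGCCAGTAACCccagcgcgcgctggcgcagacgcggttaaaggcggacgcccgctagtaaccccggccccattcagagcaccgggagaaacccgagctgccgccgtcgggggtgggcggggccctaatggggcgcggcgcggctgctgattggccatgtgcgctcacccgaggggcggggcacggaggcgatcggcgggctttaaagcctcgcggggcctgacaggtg
Fasn: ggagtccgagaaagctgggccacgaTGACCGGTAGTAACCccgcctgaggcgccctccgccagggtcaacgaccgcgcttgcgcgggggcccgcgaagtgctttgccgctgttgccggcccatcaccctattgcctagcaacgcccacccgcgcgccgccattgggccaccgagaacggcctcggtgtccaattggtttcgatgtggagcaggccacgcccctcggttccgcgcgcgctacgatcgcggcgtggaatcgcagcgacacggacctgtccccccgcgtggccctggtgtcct
The match reads TGACCGGTAGTAACC in Abca1 and in Fasn, and TGACCGCCAGTAACC in Srebf1. The same 15 letters thus stood before a gene that fell and a gene that rose.

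Genes beside the core pathway were followed in 5 further lists, 79 genes in all, of which all were measured. In Cre- cells 17 of the 79 rose and 15 fell, and in Cre+ cells 17 rose and 16 fell, with medians of 0.08 and 0.06. Over all genes tested 9.44% rose and 9.14% fell in Cre-, and 10.2% rose and 10.6% fell in Cre+ cells. Of the 9727 genes with a mean of at least 5, 2390 rose and 1877 fell in Cre-, and 2374 and 2129 in Cre+ cells. The counts by list are a description and were not tested against these shares. Of 15 other sterol and isoprenoid genes, 5 rose and 1 fell in Cre-, and 4 rose and 2 fell in Cre+ cells. Rabggtb, a subunit of the enzyme that attaches geranylgeranyl groups to Rab proteins, rose by 1.12 and 1.37 (limma adjusted p = 0.000294 and 5.76e-05). Nus1, a subunit of the enzyme that makes dolichol precursors, rose by 0.70 in each (0.00226 and 0.002), and Rce1, a protease of prenylated proteins, by 0.71 and 0.49 (0.00101 and 0.00806). Lbr, whose sterol reductase activity overlaps that of Tm7sf2, fell by 0.38 and 0.45 (0.0145 and 0.00503). The Cre- call of Lbr was lost without Cre- baseline array 3 (-0.35, 0.0533) or Cre- activated array 2 (-0.34, 0.0525).

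Among 13 genes of cholesterol uptake, storage and traffic, 3 rose and 5 fell in Cre-, and 2 rose and 3 fell in Cre+ cells. Gramd1b, which carries cholesterol from the plasma membrane inward, rose 3.28-fold and 3.81-fold (limma adjusted p = 1.89e-05 and 7.24e-06). Tmem97, a sterol-regulated membrane protein, read 5.26, 5.26 and 5.06 on Cre- baseline and 6.76, 6.93 and 8.24 on Cre- activated arrays, a 4.33-fold rise (limma adjusted p = 0.00114). It read 5.07, 5.24 and 5.07 against 7.39, 6.76 and 7.66 in Cre+ cells, a 4.43-fold rise (limma adjusted p = 0.000946). Lipa, the lysosomal lipase that frees cholesterol from esters, fell by 1.60 and 1.74 (0.00169 and 0.000954). Cd36, a lipid scavenger receptor, fell by 1.34 and 1.20 (0.000655 and 0.00123), from levels already below the array medians.

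Of 13 oxysterol and liver X receptor genes, 1 rose and 4 fell in each genotype. Mylip, a liver X receptor target that marks lipoprotein receptors for degradation, read 8.65, 8.59 and 8.39 at baseline and 7.11, 6.74 and 5.87 after activation in Cre- cells. It read 8.62, 8.55 and 8.56 against 6.92, 7.27 and 6.04 in Cre+ cells. As for Abcg1, the activated arrays numbered 3 were lowest. Mylip fell by 1.97 and 1.83 (limma adjusted p = 0.00139 and 0.00202). Pltp, a phospholipid transfer protein, fell by 2.58 and 3.21 (0.008 and 0.00207) and Cyp27a1, which makes an oxysterol, by 1.65 and 1.60 (5.29e-05 and 5.34e-05). B cell and myeloid markers fell in the same comparisons, with the values given for Abcg1, and their part was not tested. Rxra, the partner of liver X receptors, rose by 0.97 and 0.61 (5.7e-05 and 0.00121).

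Among 28 other fatty acid and lipid genes, 8 rose and 3 fell in Cre-, and 7 rose and 5 fell in Cre+ cells. Slc25a1, the mitochondrial carrier that exports citrate for Acly, rose by 1.14 and 1.07 (limma adjusted p = 0.00013 and 0.000188). Hsd17b12, a reductase of fatty acid elongation, rose by 0.97 and 1.03 (0.000289 and 0.000165). Cpt1a, which admits fatty acids to mitochondria for oxidation, fell by 1.64 and 1.66 (0.00076 and 0.000653). In the list of 10 genes of SREBP processing and sterol-regulated degradation, 2 fell in Cre-, and 3 rose and 2 fell in Cre+ cells. Rnf145, a sterol-responsive ubiquitin ligase, fell by 0.78 and 0.72 (0.00192 and 0.00286). Mbtps2, a protease that releases SREBP, rose by 0.42 in Cre+ cells (limma adjusted p = 0.00906).

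The lift on the activated arrays numbered 3 ran through the list. In activated Cre- cells array 3 was the highest of the 3 arrays for 25 of the 32 genes (78.1%), among them 15 of the 18 sterol synthesis enzymes, against 37.3% of all genes. In activated Cre+ cells it was highest for 20 of 32 (62.5%) and for 12 of 18 enzymes, against 35.5% of all genes. The mean of the 18 enzymes was 6.86, 6.84 and 7.30 on Cre- activated arrays and 6.91, 6.75 and 6.98 on Cre+ activated arrays. At baseline it was 6.40, 6.39 and 6.14 in Cre- and 6.23, 6.25 and 6.11 in Cre+ cells, so all 6 activated arrays lay above all 6 baseline arrays with or without array 3. Cell cycle genes were high on the same arrays. On Cre- activated arrays 1 and 2 the cell cycle mean was 6.61 and 6.62, against 6.42 to 6.56 at baseline. On Cre+ activated arrays 1 and 2 it was 7.19 and 6.56, against 6.34 to 6.51 at baseline. The part of the cell cycle in the enzyme values, on array 3 or on the other activated arrays, was not tested.

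**Figure D3:**
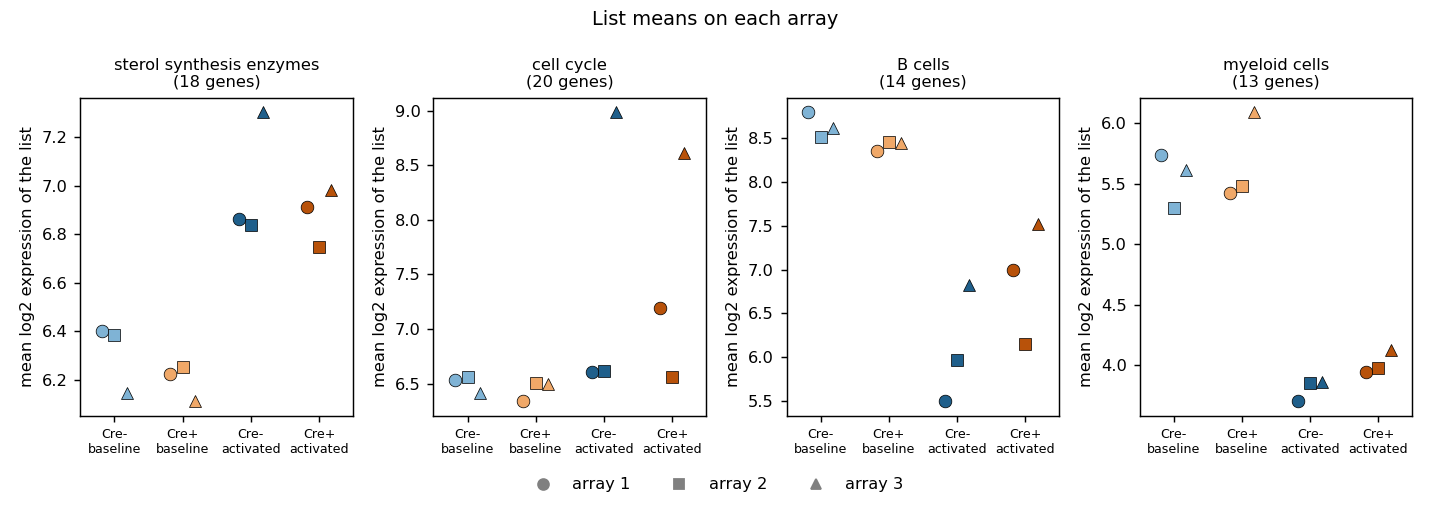
Mean log2 expression of 18 sterol synthesis enzymes, 20 cell cycle genes, 14 B cell markers and 13 myeloid markers (panels) on each array by group, with a symbol for each replicate number. The enzyme mean is above baseline on all 6 activated arrays. The cell cycle mean is far above baseline on the activated arrays numbered 3, and next highest on Cre+ activated array 1. The B cell and myeloid means are lower after activation.

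Between the genotypes at baseline, none of the 32 genes passed the limma test, and 4 had an unadjusted p under 0.05 (12.5%, against 6.9% of all genes). Of all genes tested 0.564% passed, 0.505% higher and 0.059% lower in Cre+ cells. The median of the 32 log2 differences was -0.15, with 25 of 32 below 0, against a median of 0.00 and 49.5% below 0 over all genes. Cre+ arrays lay wholly below Cre- arrays for 7 of the 32 genes, where 7.43% of all genes did. They lay wholly above for 4 of the 32, where 8.82% of all genes did. The 7 lower ones were Nsdhl, Hsd17b7, Sc5d, Dhcr7, Insig1, Acaca and Fasn, and the 4 higher ones were Pmvk, Ebp, Elovl6 and Stard4. The mean of the 14 B cell genes was 8.52 to 8.79 in Cre- and 8.36 to 8.46 in Cre+ cells, with 14 of 14 differences below 0 (median -0.18) and none passing. Their part in these differences was not tested.

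Fasn had the largest downward difference. Its Cre+ baseline values of 7.998, 7.85 and 7.68 all lay below the Cre- values of 8.71, 8.44 and 8.15. The difference was -0.59 (95% interval -1.14 to -0.05, limma adjusted p = 0.649). Acaca, with 6.64, 6.51 and 6.42 against 7.08, 6.94 and 6.98, differed by -0.47 (95% interval -0.99 to 0.04, limma adjusted p = 0.777). The pair of fatty acid enzymes thus read lower in Cre+ cells at baseline without passing the test. Elovl6 stood the other way, with 7.01, 6.89 and 6.79 in Cre+ against 6.30, 6.47 and 6.00 in Cre- cells. Its difference of 0.64 (1.56-fold, 95% interval 0.24 to 1.04) did not pass (limma adjusted p = 0.285), but it passed with array weights (0.62, adjusted p = 0.0471). Stard4 differed by 0.44 (95% interval -0.13 to 1.02, limma adjusted p = 0.878).

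In the wider lists 2 of 79 genes passed at baseline, Rxra and Acsl4, both higher in Cre+ cells. Rxra read 6.38, 6.51 and 6.36 in Cre+ against 5.91, 5.90 and 5.74 in Cre- cells, a 1.48-fold difference (log2 0.57, SE 0.10, limma adjusted p = 0.0264). Acsl4, which activates long-chain polyunsaturated fatty acids, read 8.17, 8.19 and 8.11 against 7.61, 7.63 and 7.55, a 1.47-fold difference (log2 0.55, SE 0.10, limma adjusted p = 0.0292). The groups did not overlap for either gene, and the arrays within a group lay within 0.2 log2 units. Leaving out any of the 6 baseline arrays kept the size of both differences, at 0.51 to 0.59 for Rxra and 0.53 to 0.58 for Acsl4, but lost the calls, with adjusted p-values up to 0.138.

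**Figure D4:**
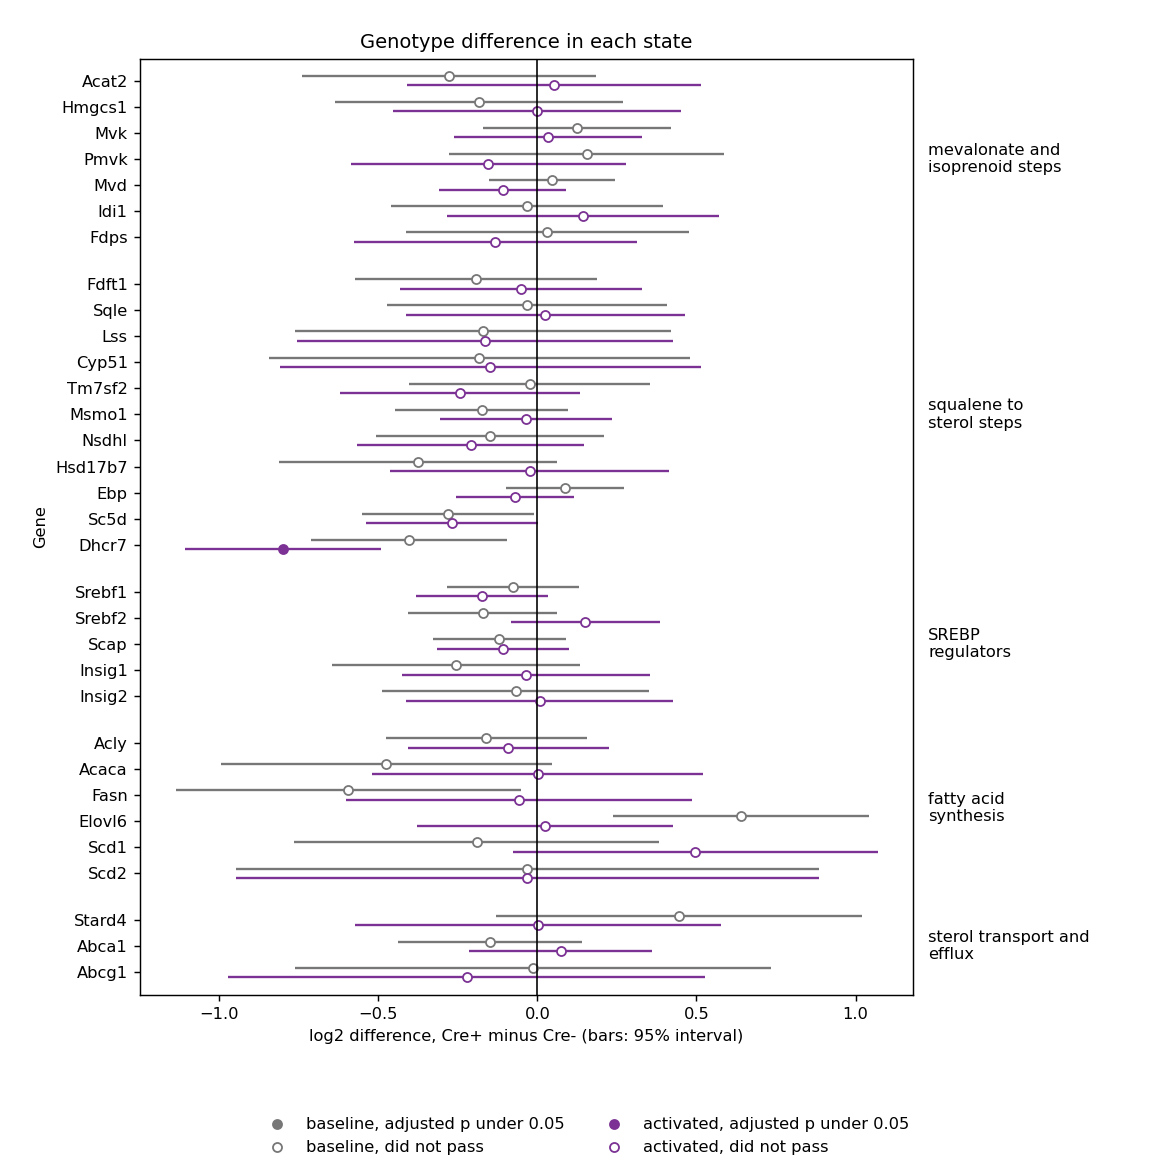
Genotype difference of the 32 genes (rows, by role) as log2 Cre+ minus Cre-, at baseline (grey) and after activation (purple). Points are differences of means of 3 arrays, bars their 95% intervals from the limma model, and filled points have an adjusted p under 0.05. The single filled point is Dhcr7 after activation, at -0.80.

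After activation 1 of the 32 genes passed between the genotypes, Dhcr7, which was lower in Cre+ cells. Of all genes tested 0.746% passed, 0.649% higher and 0.0969% lower in Cre+ cells. The median over the 32 was -0.04, beside -0.01 over all genes. Dhcr7 encodes the reductase that turns dehydrocholesterol into cholesterol. It read 7.46, 7.46 and 7.80 on Cre- activated arrays and 6.74, 6.57 and 7.01 on Cre+ activated arrays. All Cre+ arrays lay below all Cre- arrays, a difference of -0.80 or 1.74-fold (SE 0.14, 95% interval -1.11 to -0.49, limma adjusted p = 0.0241). At baseline it read 7.63, 7.62 and 7.34 in Cre- and 7.17, 7.13 and 7.07 in Cre+ cells, again without overlap. The baseline difference of -0.40 (95% interval -0.71 to -0.10) did not pass (limma adjusted p = 0.454).

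The call of Dhcr7 was kept in 15 of 20 alternatives, in all of which the difference was -0.92 to -0.69. It was lost without Cre- activated array 1 (-0.86, adjusted p = 0.0532), Cre- activated array 2 (-0.86, 0.0624), Cre+ activated array 1 (-0.79, 0.117) or Cre+ activated array 2 (-0.70, 0.0593), and when only the 6 activated arrays were fitted (-0.80, 0.287). B cell markers were higher in activated Cre+ cells, 14 of 14 with a median of 0.77 and none passing, and their part in the Dhcr7 value was not tested. Within each activated group the B cell mean was highest on array 3, and so was Dhcr7. That rank was common, as array 3 was highest for 25 of the 32 genes in activated Cre- and for 20 in activated Cre+ cells.

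Sc5d, which acts just before Dhcr7 in the pathway, was the other gene of the 32 whose genotypes did not overlap in baseline or in activated cells. It read 7.92, 7.95 and 7.60 in Cre+ against 8.07, 8.20 and 8.04 in Cre- cells at baseline. After activation it read 8.12, 8.10 and 8.26 against 8.29, 8.38 and 8.61. The differences of -0.28 and -0.27 were alike in size and did not pass (limma adjusted p = 0.698 and 0.671). Mvd, Fdps and Scap also lay wholly lower in activated Cre+ cells, and Srebf2 wholly higher, by 0.15 (limma adjusted p = 0.909). Of all genes tested, 5.48% lay wholly lower and 5.28% wholly higher in activated Cre+ cells. The baseline gaps of Fasn, Acaca, Elovl6 and Stard4 were not seen after activation, with differences of -0.06, 0.00, 0.02 and 0.00 and overlapping arrays.

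**Figure D5:**
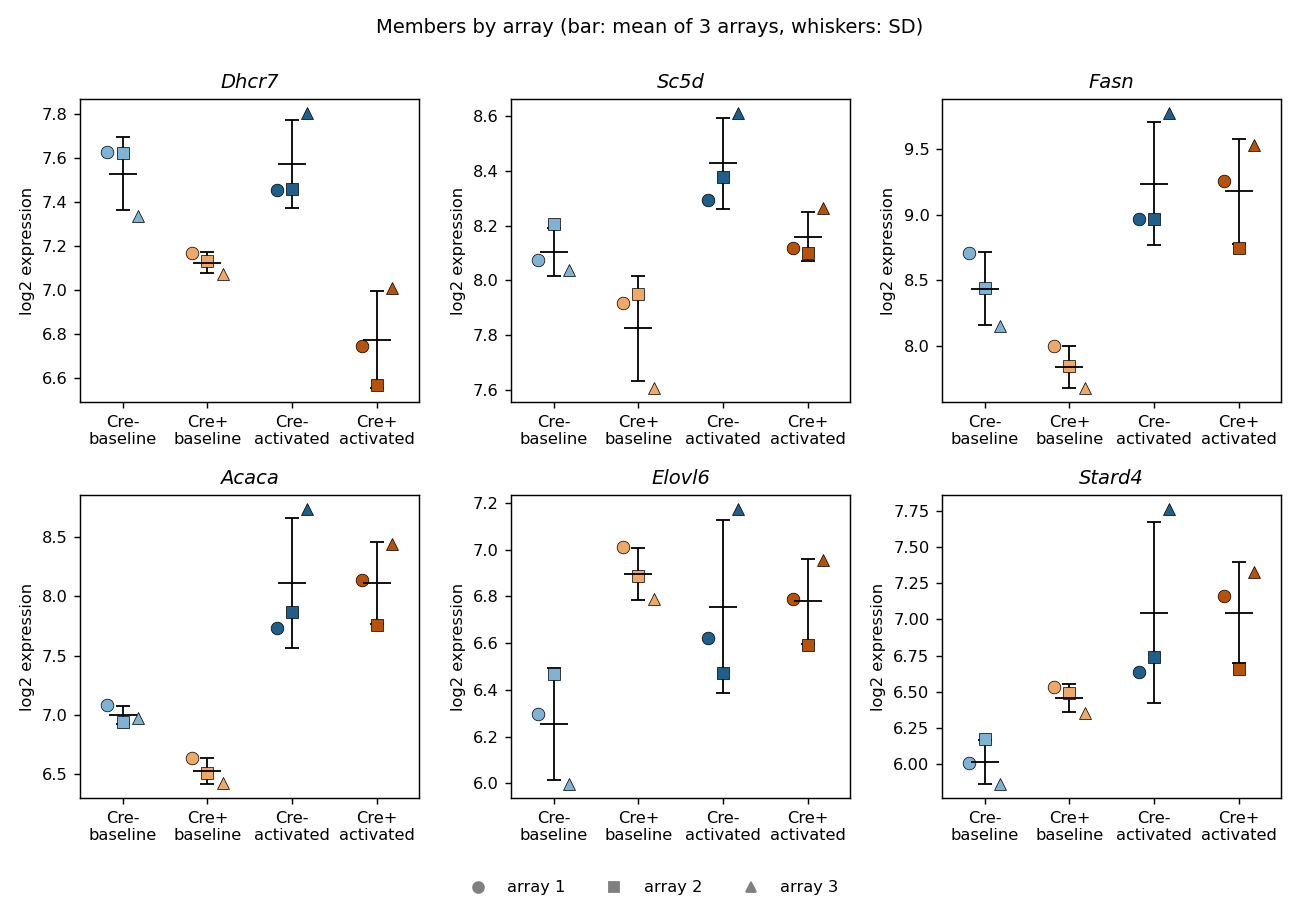
Log2 expression of Dhcr7, Sc5d, Fasn, Acaca, Elovl6 and Stard4 on each array by group, with a symbol for each replicate number, the mean as a bar and the SD as whiskers (n = 3). The vertical axes are cut to the range of each gene. All Cre+ points of Dhcr7 and Sc5d lie below the Cre- points of the same state, while the genotypes of the other 4 genes are apart at baseline and overlap after activation.

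Whether activation acted differently in the genotypes was tested as the difference of the responses, and none of the 32 genes passed (0.00842% of all genes did, 2 of 23740). One of the 32, Elovl6, had an unadjusted p under 0.05 (3.12%, against 4.68% of all genes). Its response was -0.62 in Cre+ relative to Cre- cells (95% interval -1.18 to -0.05, limma adjusted p = 1). Dhcr7 differed by -0.40 (95% interval -0.83 to 0.04), Scd1 by 0.69 (-0.12 to 1.50), Fasn by 0.54 (-0.23 to 1.31) and Acaca by 0.48 (-0.26 to 1.21). Intervals of this width leave room for differences of more than 1 log2 unit in either Scd1 or the pair of fatty acid enzymes. Among the sterol enzymes the interval was -0.46 to 0.82 for Hmgcs1, -0.56 to 0.68 for Sqle and -0.90 to 0.97 for Cyp51. Differences at baseline and differences of response share the baseline arrays, so a low Cre+ baseline and a steep Cre+ response in Fasn or Acaca are not separate measurements.

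Across the 32 genes the responses of the genotypes correlated at Pearson r = 0.947 and Spearman rho = 0.915, as a description over genes that are not independent. These values and the shared signs below were not computed over all genes, so the likeness is not shown to be particular to the 32. The arrays were separate but not all unrelated. Deviations of same-numbered activated arrays correlated between the genotypes at -0.039, 0.574 and 0.727 for numbers 1 to 3. The sign was shared by 29 of 32 genes. Of the calls, 14 were made in both genotypes, Pmvk, Mvd, Fdps and Stard4 in Cre- cells alone and Srebf2 in Cre+ cells alone. For these 5 genes the difference of responses did not pass, so none is shown to respond in 1 genotype only.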

How the data were processed

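Total RNA of 12 samples was labelled with biotin and hybridised to Mouse Gene 2.0 ST arrays, per the labels. The authors deposited log2 expression made with RMA, and the submitters' processing notes name affy 1.36.1 and R 2.15.1. No source used here names the chip definition or build. Values ran from 0.542 to 13.2, array medians from 4.04 to 4.17, and the number of arrays limits the precision.

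Of 25206 probe sets, 23185 were named by the platform table and 555 by RefSeq gene identifier (Acat2 among them). The 1466 without a name were left out. All 12 arrays entered a limma fit (version 3.58.1 in R 4.3.3) of group means, with 8 residual and 3.54 prior degrees of freedom, two-sided, adjusted by Benjamini-Hochberg over 23740 genes at 0.05. The script was tested on simulated data. SE and 95% intervals are the moderated ones, and folds are 2 to the log2 difference.

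The members, the wider lists and the marker lists were chosen with earlier results of these data known. Any member could be named. Array values are given for members that passed between genotypes, the 2 smallest p-values of each role in activated Cre- cells and members against their role's majority, and some were added after their values were seen (Cyp51, Hsd17b7, Fasn, Sc5d, Abcg1, Scd2, Srebf2 and wider genes). Wider lists name up to 4 genes that passed. Same-numbered arrays of different groups had deviations that correlated at -0.0963 to 0.727. The highest were between activated Cre- and Cre+ arrays, 0.727 for number 3 and 0.574 for number 2, against -0.039 for number 1. What the numbers stand for is not given. The labels name no pairing, so the samples were tested as unpaired. Alternatives were a replicate block, array weights, robust moderation with a variance trend, a mean of at least 5, median centring, quantile normalization, leaving out each array or the activated arrays numbered 3, and only the arrays compared.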

Additional observations from a re-analysis of the deposited data

How the results depend on the processing

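No call on the 32 genes or the wider lists changed sign in any alternative tried. Of the 34 member calls in the 5 comparisons, 24 were kept in every alternative that tested them and 10 were lost in some, and of 67 calls in the wider lists 43 were kept and 24 lost in some. With array weights 1 member was higher in Cre+ cells at baseline (Elovl6) and 19 members rose with activation in Cre+ cells. With only the arrays compared, 0 members were lower in activated Cre+ cells. Leaving out 1 array at a time gave 10 to 17 members higher and 2 to 3 lower with activation in Cre- cells, 10 to 16 higher and 3 lower in Cre+ cells, and 0 to 1 lower in activated Cre+ cells. It gave 0 in the other directions. With the replicate number as a block, 16 members rose and 3 fell in Cre- cells, 13 rose and 3 fell in Cre+ cells and 1 was lower in activated Cre+ cells, so the block added Nsdhl in both activation comparisons and lost no member, but Rxra and Acsl4 at baseline did not pass. Median centring moved all genes up by 0.08 in the Cre- activation comparison, where 2867 genes were then higher and 1716 lower against 2241 and 2171, and members 16 and 3. After activation 177 of all genes passed between genotypes, against 1321 higher and 1341 lower with array weights and 11 with only the arrays compared. Dim readings near the array medians, such as Idi1, Fdps and activated Abca1, have no measured background.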
